A study of Mus musculus and Acomys cahirinus with 84 samples.

Results

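African spiny mouse (*Acomys cahirinus*) skin fibroblasts were compared 24 h after 10 Gy of gamma radiation with untreated cells of the same animals. The 8 libraries, 4 untreated and 4 at 10 Gy, were taken from the 84 of the series by species, time and dose in the labels. They were paired by replicate number R1 to R4. Each number stands for 1 animal code in the library names, so the 4 pairs are called animals 1 to 4 here. All libraries are labelled as polyA RNA from primary skin fibroblasts, and every 24 h library carries the same batch label. Beside them stand the 4 spiny mouse libraries at 20 Gy and 24 h, 8 spiny mouse libraries at 12 d (10 Gy and untreated, under a second batch label), and 8 libraries at 24 h (10 Gy and untreated) from each of 2 house mouse populations, labelled C56BL6 and wild. The untreated 12 d libraries are those labelled untreated, and a second 12 d group labelled untreated passaged was not compared here. The series' design asks how fibroblasts of the 3 populations respond to 0, 10 and 20 Gy.

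Ionising radiation breaks DNA, and the kinase ATM then stabilises the transcription factor p53. p53 switches on Cdkn1a, which encodes the cyclin-dependent kinase inhibitor p21, together with its own antagonist Mdm2 and other targets. With the kinases held back, the RB family proteins stay bound to E2F factors and, in the DREAM complex, keep genes of DNA replication and mitosis off. In cultured fibroblasts a high dose is known for a lasting growth arrest rather than rapid death, often followed by secretion of cytokines and matrix enzymes.

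Total assigned reads ran from 28.61 M (untreated, animal 2) to 46.24 M (10 Gy, animal 2), and 14750 to 15438 genes had a read. Levels are in CPM, read counts divided by the depth of each library after TMM scaling (a trimmed mean that lets libraries of unlike makeup be compared), so 3 reads corresponded to 0.065 to 0.105 CPM. Deviations from the group means correlated at 0.511, 0.828, 0.649 and 0.812 (Pearson's r across genes, a description) between the untreated and the 10 Gy library of animals 1 to 4, and at -0.63 to 0.161 between libraries of different animals. Deviations in a group sum to 0 over its 4 animals, so positive values within animals pull the values between animals down. By the values within animals, the animals differed from each other in a similar way in both groups. The main test compared libraries within animals. Log2 changes are 10 Gy over untreated with their standard error, and adjusted p-values are from edgeR's quasi-likelihood test with Benjamini-Hochberg adjustment over all genes tested at a threshold of 0.05. Nothing beyond the animal code says how separate the cultures were, so the p-values measure the spread between these 4 pairs.

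The cultures were checked against markers of the labelled cell type first. All 14 fibroblast markers were detected, with a summed level of 20405 to 27114 CPM in the untreated and 22224 to 32596 CPM in the 10 Gy libraries. Col1a2, a chain of type I collagen, led with a mean of 10463 CPM. Keratinocyte markers summed to 6.26 to 16.7 CPM untreated and 7.1 to 19.7 CPM at 10 Gy, with Krt15 at 0 in every library. Endothelial markers (0.709 to 0.888 CPM untreated, 1.05 to 1.85 CPM at 10 Gy, Emcn and Cldn5 at 0) were low, and immune markers summed to 4.46 to 6.13 CPM and 5.55 to 6.25 CPM, with Cd3e at 0 and Cd14 leading at a mean of 2.04 CPM. Adipocyte markers summed to 3.75 to 12.7 CPM and 4.18 to 11.1 CPM, and melanocyte and Schwann markers to 9.1 to 13.3 CPM and 9.86 to 15 CPM, with Tyr at 0.

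Mural and muscle markers stood above the keratinocyte, endothelial, immune, adipocyte, melanocyte and Schwann lists, summing to 782 to 1459 CPM untreated and 1012 to 1578 CPM at 10 Gy, led by the pericyte proteoglycan Cspg4 (mean 388 CPM), with Kcnj8 at 0. Genes of the skeletal muscle lineage were also present. Myod1 and Myog encode the transcription factors that commit cells to muscle and drive their differentiation, and Pax7 marks muscle stem cells. Myod1 stood at 156, 57.5, 154 and 155 CPM in untreated animals 1 to 4 and at 147, 72.3, 155 and 129 CPM at 10 Gy. Myog stood at 436, 166, 431 and 308 CPM and 447, 209, 474 and 297 CPM. Pax7 stood at 47.6, 23.1, 46.4 and 57.7 CPM and 46, 24.1, 43 and 51.3 CPM. All 3 were well above the floor in every animal, lowest in animal 2, and overlapped between the groups. Actc1, the cardiac actin that young muscle also makes, stood at 2570, 859, 2419 and 2202 CPM untreated and 2532, 992, 2687 and 2111 CPM at 10 Gy. Myh3, the embryonic myosin heavy chain, stood at 1345, 308, 1355 and 712 CPM and 1353, 355, 1514 and 928 CPM. Both structural genes were lowest in animal 2 in each group. In contrast, Pdgfra, a receptor typical of dermal fibroblasts, was highest in animal 2, at 25.8, 76, 17.3 and 19.2 CPM untreated and 24.3, 78.9, 19.4 and 15.8 CPM at 10 Gy.

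Over 21 skeletal muscle genes, a list drawn up after these values were seen (Myod1, Myog and Actn2 were already among the mural and muscle markers), the summed level was 7912, 2847, 7678 and 6022 CPM in untreated animals 1 to 4. It was 8009, 3512, 8623 and 6375 CPM at 10 Gy, higher than untreated in each animal. Of the 21, 19 had a mean of at least 5 CPM in the spiny mouse libraries, against 3 in C56BL6 and 3 in wild mouse libraries of the same time and doses. The sums there were 107 to 329 CPM in C56BL6 and 22.6 to 2121 CPM in wild mice, where replicate 1 had the highest values (1359 CPM untreated, 2121 CPM at 10 Gy). At 10 Gy 8 of the 21 rose and 1 fell, with a median log2 change of 0.139. Of all genes tested 15.2% rose and 12.4% fell, with a median of 0.0332. The one that fell was Myf5, an early muscle-determining factor, from 20.9, 10.6, 23.9 and 67.7 CPM to 13.7, 8.21, 15.9 and 33.2 CPM (log2 change -0.66 ± 0.094, adjusted p = 0.000224). Myf5 was lower at 10 Gy in each animal, while the groups overlapped because animals 1 to 3 were far below animal 4. None of the 9 calls held without the animal block. The cultures are therefore called fibroblasts by their label and fibroblast markers, with muscle lineage RNA present in all 4 animals, and its part in the results that follow was not tested. In bulk RNA, fewer cells of a type and less RNA per cell cannot be told apart.

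**Figure D1:**
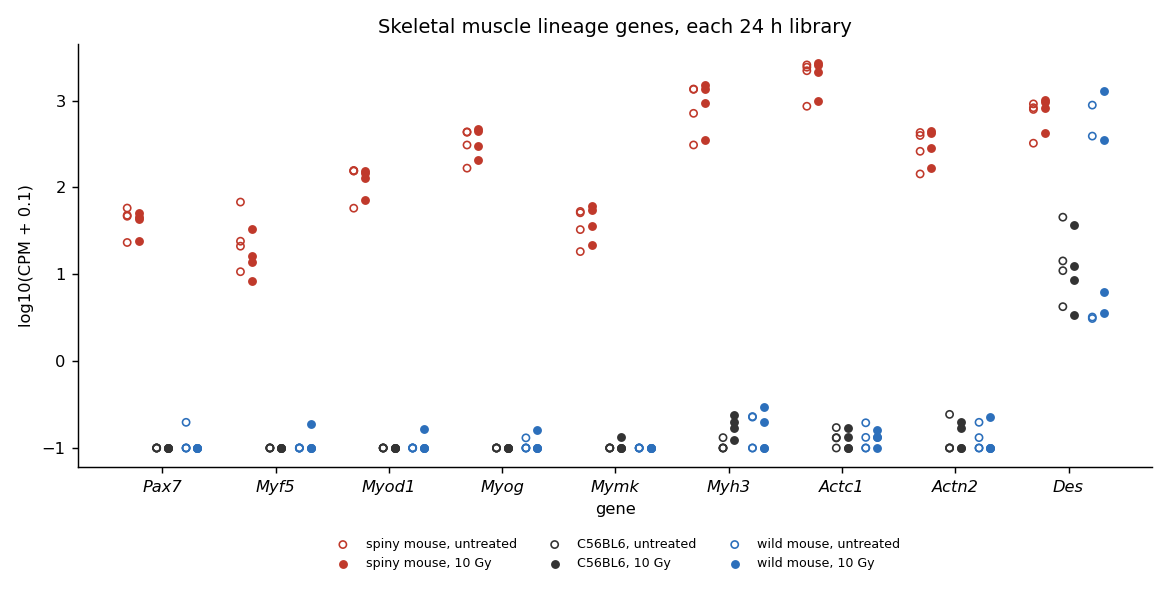
Levels of 9 skeletal muscle lineage genes at 24 h, as log10 of CPM plus 0.1, in spiny mouse, C56BL6 and wild mouse libraries. Each point is 1 library, open for untreated and filled for 10 Gy. Spiny mouse points for Myod1 and Myog lie at 57.5 CPM or more in every library.

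At 10 Gy genes of mitosis and DNA replication fell, with the lowest medians of all gene lists examined, and targets of p53 rose. The lists and their members were chosen with earlier results of these data known, so their counts and medians are descriptions. Of 13083 genes tested, 3615 passed the threshold (27.6%), 1993 higher (15.2%) and 1622 lower (12.4%). These shares are the background to the list counts at 10 Gy below. Most changes were small. The median log2 change was 0.325 among genes that rose and -0.342 among those that fell, against 0.0332 over all genes tested. Large changes lay mainly on the lower side, where 242 genes (1.85% of those tested) fell by at least 2-fold and 62 (0.474%) rose by at least 2-fold. Without the animal block 488 genes passed (3.73%), 83 higher (0.634%) and 405 lower (3.1%), so the small changes rest on comparing libraries within animals. The count was 4742 without animal 2, 2156 without animal 3 and 1985 without animal 4.

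**Figure D2:**
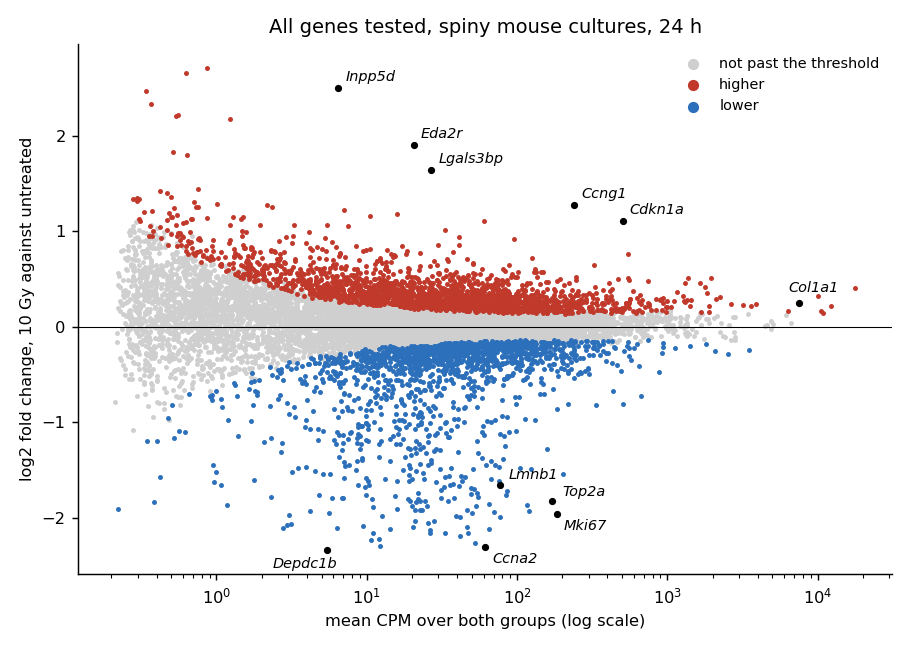
Log2 change at 10 Gy against mean level in CPM (log axis) for the 13083 genes tested, 1 point per gene, with genes past the threshold coloured by direction. Falls of at least 2-fold (242 genes) outnumber rises of that size (62 genes).

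Regulators and targets of p53 rose at 10 Gy. A list of 16 genes, called p53 regulators below, holds genes that regulate p53, feed back on it or are its targets. Of these 9 rose and 1 fell, with a median log2 change of 0.419. Cdkn1a is counted again among the cyclin-dependent kinase inhibitors, and Trp53inp1 among the p53 targets of cell death. Cdkn1a (scaffold_7:4994091-5004665, plus strand of the AcoCah2 assembly), which encodes the cell cycle inhibitor p21, stood at 386, 279.8, 359 and 271 CPM in untreated animals 1 to 4 and at 717, 692, 702 and 625 CPM at 10 Gy. The groups did not overlap, and the highest untreated value lay far below the lowest irradiated one (log2 change 1.11 ± 0.065, adjusted p = 8.17e-08). Mdm2 (scaffold_16:16877580-16898385, plus strand), the ubiquitin ligase that degrades p53, stood at 94.8, 117, 86.1 and 87 CPM and 156, 165, 149.9 and 151 CPM. It was higher at 10 Gy in each animal without overlap (log2 change 0.72 ± 0.06, adjusted p = 1.84e-06). Ccng1 (scaffold_14:72117180-72124207, minus strand), cyclin G1, a p53 target that acts on Mdm2, stood at 145, 199, 128 and 105 CPM and 339, 375, 321 and 309.6 CPM. It was likewise separated (log2 change 1.27 ± 0.083, adjusted p = 1.93e-07).

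Other members of this group were separated between the groups. Trp53inp1, a p53 cofactor of cell death and autophagy, went from 22.9, 22.5, 21.5 and 21.3 CPM to 46.7, 39.9, 44.2 and 44.5 CPM (log2 change 1.01 ± 0.065, adjusted p = 1.7e-07). Zmat3, an RNA-binding target of p53, went from 66.9 ± 13.7 CPM to 123 ± 7.04 CPM (mean ± SD, n = 4 libraries each; log2 change 0.92 ± 0.073). Phlda3, an inhibitor of AKT signalling, went from 117 ± 4.28 CPM to 172 ± 21 CPM (log2 change 0.58 ± 0.061). All 3 were higher at 10 Gy in each animal. Trp53, the gene of p53 itself, was the member that fell. It stood at 110.5, 83.8, 107 and 119 CPM untreated and 85.8, 84.1, 88.7 and 92.8 CPM at 10 Gy, and the groups overlapped because untreated animal 2 was low (log2 change -0.23 ± 0.062, adjusted p = 0.0163). That call was lost without the animal block (adjusted p = 0.279) and without animal 1, 3 or 4 (adjusted p = 0.0919, 0.0734 and 0.0993).

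Among 15 tested p53 targets of cell death, 9 rose and 0 fell, with a median log2 change of 0.315, and 3 rose without the animal block. Eda2r (scaffold_11:47964054-48007013, minus strand), a receptor of the TNF receptor family, stood at 9.58, 13.4, 7.84 and 5.39 CPM untreated and 37.9, 29.7, 32.8 and 27.9 CPM at 10 Gy. Its groups were far apart (log2 change 1.90 ± 0.15, adjusted p = 9.38e-07). Bax, which permeabilises mitochondria in apoptosis, stood at 108, 92.1, 116 and 115 CPM and 122, 134, 131 and 142 CPM. The rise of Bax was small, with no overlap (log2 change 0.32 ± 0.061, adjusted p = 0.00221), and did not pass without the block (adjusted p = 0.0936).

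Among 18 tested p53 targets of metabolism and repair, 9 rose and 2 fell, with a median log2 change of 0.248. Of the genes called at 5 CPM or more on average, the largest rise was that of Inpp5d (scaffold_2:21903794-22016944, minus strand), which encodes the lipid phosphatase SHIP1, known mainly from blood cells. Its level stood at 2.62, 2.48, 1.55 and 1.38 CPM untreated and 12.2, 10.4, 10.1 and 10.8 CPM at 10 Gy. No untreated library came near the irradiated ones (log2 change 2.5 ± 0.14, adjusted p = 6.43e-08). Immune markers in the same libraries summed to 4.46 to 6.13 CPM untreated and 5.55 to 6.25 CPM at 10 Gy. Polk and Polh encode translesion polymerases, which copy damaged DNA, and they moved in opposite directions. Polk went from 11.8 ± 2.18 CPM to 19.3 ± 1.7 CPM (log2 change 0.74 ± 0.077, adjusted p = 1.45e-05). Polh went from 60.2 ± 5.01 CPM to 35.2 ± 2.72 CPM (log2 change -0.76 ± 0.054, adjusted p = 4.31e-07). Neither pair of groups overlapped. Gdf15, a stress cytokine, stood at 8.54, 5.1, 6.63 and 5.53 CPM and 9.13, 10.8, 8.01 and 8.87 CPM, with overlap (log2 change 0.54 ± 0.13, adjusted p = 0.00897). Its call was lost without animal 4 (adjusted p = 0.0657) and without the block (adjusted p = 0.167). Ddit4, an inhibitor of mTOR signalling, was the other member that fell (log2 change -0.20 ± 0.054, adjusted p = 0.0159), and it did not pass without the block (0.325) or without animal 1, 3 or 4 (0.0635, 0.0896 and 0.103). Without animal 4 the number that rose in this list was 3, without animal 1 it was 5, and without the block it was 2.

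Other genes with the largest rises were named by size alone. Sytl1, a Rab27 effector of vesicle transport, went from 4.28 ± 0.855 CPM to 9.81 ± 0.976 CPM (log2 change 1.23 ± 0.10, adjusted p = 2.15e-06). Inka2, an inhibitor of the kinase PAK4, went from 9.8 ± 2.08 CPM to 21.9 ± 4.69 CPM (log2 change 1.18 ± 0.073, adjusted p = 1.16e-07). Neither overlapped between the groups. Ntn1, the guidance factor netrin 1, went from 6.6 ± 2.5 CPM to 14.3 ± 4.02 CPM with overlap (log2 change 1.16 ± 0.085, adjusted p = 5.07e-07, 0.0871 without the block). Ddit4l, a relative of the mTOR inhibitor Ddit4, went from 3.6 ± 1.91 CPM to 7.22 ± 2.69 CPM with overlap (log2 change 1.07 ± 0.14, adjusted p = 9.34e-05, 0.332 without the block).

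**Figure D3:**
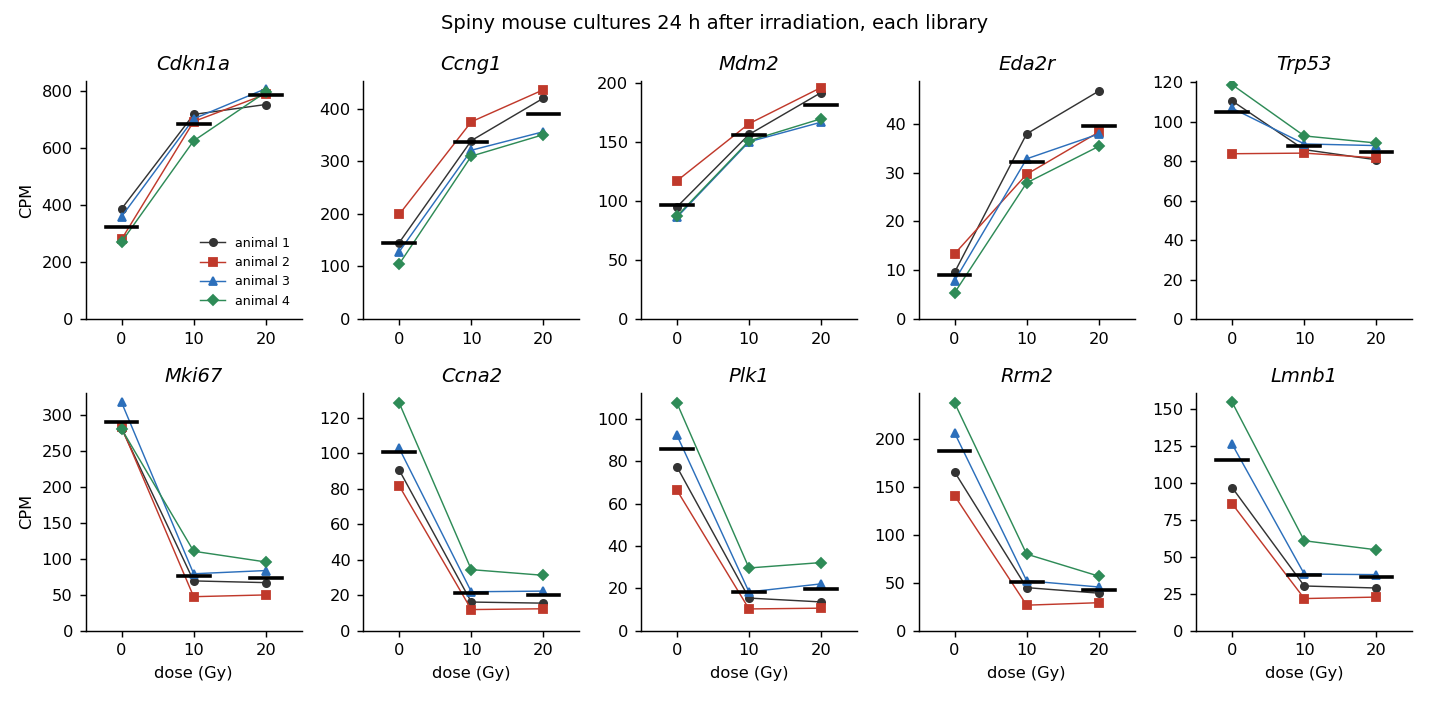
Level in CPM of 10 genes by dose at 24 h. Each line joins the 3 libraries of 1 animal and black bars are group means. Cdkn1a, Ccng1, Mdm2 and Eda2r rise in each animal from 0 to 10 Gy, and Mki67, Ccna2, Plk1, Rrm2 and Lmnb1 fall in each, while Trp53 overlaps between the doses.

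Cdkn1a was the only one of 7 cyclin-dependent kinase inhibitors that rose. The other calls were falls, in Cdkn1b, Cdkn2c and Cdkn2d, and the median log2 change was -0.106. Cdkn2c, which encodes p18, an inhibitor of CDK4 and CDK6, went from 31.6, 30.7, 35.2 and 38.8 CPM to 17.3, 16.8, 18.8 and 20.4 CPM. It was separated between the groups (log2 change -0.88 ± 0.061, adjusted p = 3.52e-07). Cdkn2d, which encodes the related p19, went from 11.8 ± 1.67 CPM to 8.73 ± 1.47 CPM (log2 change -0.43 ± 0.088, adjusted p = 0.00312, 0.215 without the block). Cdkn2a, the locus of p16 and ARF, stood at 29.4, 33.7, 24.8 and 25.4 CPM untreated and 29.8, 47.9, 25.3 and 25.5 CPM at 10 Gy. The value of animal 2 was higher at 10 Gy and the others lay level, and the difference did not pass (log2 change 0.16 ± 0.082, adjusted p = 0.161).

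Of 20 cyclins, kinases and their activators, 15 fell and 3 rose, with a median log2 change of -0.675, and 9 fell without the block. Ccna2 (scaffold_7:79478130-79486581, minus strand), cyclin A2 of S and G2 phase, stood at 90.6, 81.7, 103 and 128 CPM untreated and 16.2, 12, 22 and 34.5 CPM at 10 Gy. No values overlapped, and animal 4 kept the highest level in both groups (log2 change -2.31 ± 0.11, adjusted p = 2.51e-08). Ccnb1, cyclin B1 of mitosis, went from 114, 122, 129 and 153 CPM to 34.8, 23.4, 39.8 and 59.5 CPM (log2 change -1.76 ± 0.12, adjusted p = 2.77e-07). Cdk1, the kinase that mitotic cyclins activate, went from 132, 136, 158 and 192 CPM to 52.1, 31.9, 60.8 and 82.3 CPM (log2 change -1.48 ± 0.11, adjusted p = 6.81e-07). Both showed the same order of animals, with animal 2 lowest and animal 4 highest after irradiation. The 3 that rose were Ccnd1, Ccnd2 and Ccnd3, the D-type cyclins, which act in G1 phase. Ccnd1 went from 427, 497, 309 and 254 CPM to 521, 559, 399 and 382 CPM (log2 change 0.37 ± 0.064, adjusted p = 0.000975, 0.508 without the block). Ccnd2 went from 382, 673, 239 and 236 CPM to 496, 739, 337 and 338 CPM (log2 change 0.40 ± 0.065, adjusted p = 0.000643, 0.746 without the block). Each was higher at 10 Gy within every animal, but the animals differed from each other by more than the dose groups did.

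The regulators above these genes changed with them. Of 20 E2F, RB family, MuvB and FOXM1 genes, 13 fell and 1 rose, with a median log2 change of -0.476. E2f1, an activator of S phase genes, went from 52.5, 37.4, 57.4 and 67.2 CPM to 23.6, 19.1, 26.7 and 33.9 CPM (log2 change -1.03 ± 0.059, adjusted p = 6.97e-08). E2f8, a repressor of the same family that is itself made in S phase, went from 36.7, 27.5, 41.7 and 59.2 CPM to 8.02, 5.91, 9.95 and 16.1 CPM (log2 change -2.06 ± 0.076, adjusted p = 7.42e-09). Foxm1, the activator of G2 and mitosis genes, went from 74.3, 65.3, 84.2 and 92.4 CPM to 18.8, 13.7, 20.9 and 29 CPM (log2 change -1.95 ± 0.082, adjusted p = 1.27e-08). None of the 3 overlapped between the groups. The gene that rose was Rbl2, which encodes p130, the RB family protein of the DREAM repressor complex. It went from 28.6, 34.9, 28.9 and 31.4 CPM to 47.3, 47.2, 42.2 and 42.3 CPM without overlap (log2 change 0.55 ± 0.067, adjusted p = 5.57e-05).

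Mitosis and replication genes carry different promoter elements, and 6 promoters are shown as examples: 3 of mitosis genes (Top2a, Kif22, Ube2c), that of Cdk1 from the list of cyclins and kinases, and 2 of replication genes (Orc1, Mcm6). Mitotic genes are known for the cell cycle genes homology region (CHR, TTTGAA, either strand), which the DREAM complex binds, and replication genes for E2F sites (searched as TTTCCCGC, TTTCGCGC, TTTGCCGC or TTTGGCGC, either strand). The sequences are those of the house mouse from the RefSeq promoter table (GRCm38.p6), not of the spiny mouse, and span the 150 bases before each start, 5′ to 3′ along the gene, with the letters of 1 element per gene in capitals.
Top2a, chr11:99024190-99024339, minus strand: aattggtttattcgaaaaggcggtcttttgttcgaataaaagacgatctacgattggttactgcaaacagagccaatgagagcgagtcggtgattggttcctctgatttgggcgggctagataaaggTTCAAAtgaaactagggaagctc
Kif22, chr7:127042421-127042570, minus strand: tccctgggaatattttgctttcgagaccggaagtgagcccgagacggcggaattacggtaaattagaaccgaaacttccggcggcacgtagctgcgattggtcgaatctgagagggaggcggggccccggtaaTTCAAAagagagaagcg
Ube2c, chr2:164769779-164769928, plus strand: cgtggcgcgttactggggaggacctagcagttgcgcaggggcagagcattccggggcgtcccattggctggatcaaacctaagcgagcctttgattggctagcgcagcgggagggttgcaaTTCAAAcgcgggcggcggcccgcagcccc
Cdk1, chr10:69352913-69353062, minus strand: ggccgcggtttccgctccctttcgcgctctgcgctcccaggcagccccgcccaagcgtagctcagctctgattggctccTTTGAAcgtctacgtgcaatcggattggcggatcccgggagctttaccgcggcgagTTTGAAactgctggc
Orc1, chr4:108579304-108579453, plus strand: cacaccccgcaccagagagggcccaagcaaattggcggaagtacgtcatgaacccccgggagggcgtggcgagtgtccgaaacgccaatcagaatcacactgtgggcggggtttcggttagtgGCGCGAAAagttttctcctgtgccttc
Mcm6, chr1:128359706-128359855, minus strand: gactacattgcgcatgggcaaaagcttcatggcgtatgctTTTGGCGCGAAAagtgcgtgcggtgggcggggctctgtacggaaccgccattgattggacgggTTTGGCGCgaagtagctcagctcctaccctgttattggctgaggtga
Capitals mark CHR letters in Top2a, Kif22, Ube2c and Cdk1, and E2F letters in Orc1 and Mcm6, where overlapping matches run together. The Cdk1 window also holds 1 match to the E2F letters, left in lower case, and no other printed window holds the element that is not marked in it. In windows from 250 bases before to 50 after the start, CHR letters were found in 38 of 52 matched mitosis genes (73.1%), in 4 of 35 replication genes (11.4%) and in 0 of 14 p53 regulators, against 20.2% of the promoters of all 27025 genes. E2F letters were found in 4 of the 52 mitosis genes (7.69%), in 16 of the 35 replication genes (45.7%) and in 0 of the 14 p53 regulators, against 2.6% of all. The CCAAT box, where NF-Y binds, was found in 37 of 52 mitosis genes (71.2%) and 21 of 35 replication genes, against 41.1% of all. Each printed window is the first listed promoter of its gene that held the marked element, so the element's presence there was selected. In the counts a gene had the letters if any of its listed promoters did. The 27025 genes are all those of the promoter table, tested here or not. A match is a description of these letters, not a binding site or a cause.

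All 60 genes of mitosis, kinetochore and cohesion fell, with a median log2 change of -1.7, and 57 of the 60 fell without the animal block. The count stayed at 60 when any 1 animal was left out. The median per animal was -1.64, -2.13, -1.61 and -1.3 for animals 1 to 4, against -0.00663, 0.0476, 0.00235 and -0.0141 over all genes tested. The fall was thus largest in animal 2 and smallest in animal 4. Mki67 (scaffold_17:63777654-63802644, plus strand), which coats mitotic chromosomes and serves as a proliferation marker, stood at 282, 284, 318 and 281 CPM untreated and 69.5, 47.5, 79.4 and 111 CPM at 10 Gy. The untreated values were close together, and every irradiated library lay far below them (log2 change -1.96 ± 0.14, adjusted p = 3.68e-07). Plk1 (scaffold_17:77310357-77320888, minus strand), the kinase of mitotic entry, stood at 77.4, 66.4, 92.3 and 108 CPM and 15.4, 10.3, 18.4 and 29.6 CPM. It fell in each animal with no overlap (log2 change -2.27 ± 0.10, adjusted p = 1.83e-08). Top2a (scaffold_9:22261327-22295388, plus strand), the topoisomerase that untangles sister chromatids, stood at 242, 231, 271 and 304 CPM and 69.6, 40.5, 80.1 and 119.5 CPM. It too was separated (log2 change -1.83 ± 0.13, adjusted p = 4.64e-07).

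The deepest falls were in genes of the same kind. Depdc1b, a protein that peaks in mitosis, went from 9.02 ± 2.53 CPM to 1.83 ± 1.09 CPM (log2 change -2.34 ± 0.15, adjusted p = 1.37e-07). Hjurp, the chaperone that loads centromeric histone, went from 20.2 ± 3.25 CPM to 4.22 ± 1.91 CPM (log2 change -2.29 ± 0.13). Fbxo5, the inhibitor EMI1 of the anaphase-promoting complex, went from 17.5 ± 4.15 CPM to 3.77 ± 1.61 CPM (log2 change -2.24 ± 0.11). Each of these fell in all 4 animals without overlap. Ccnb2, Cdca3, Esco2, Kif2c and Shcbp1, which act in mitotic entry, cohesion, chromosome alignment and cytokinesis, fell by 2.16 to 2.22 on the log2 scale. Kif22, a chromosome arm motor, went from 66.6, 56.2, 79 and 98.9 CPM to 19.7, 16.2, 24.4 and 33 CPM, the animals shifting almost in parallel (log2 change -1.69 ± 0.06, adjusted p = 7.42e-09).

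All 45 genes of DNA replication and nucleotide supply fell, with a median log2 change of -1.04, and 35 of the 45 fell without the animal block. The count was 45 without animal 1 or 2, 43 without animal 3 and 44 without animal 4. The median per animal lay between -1.0 and -1.14, so these genes moved more evenly across animals than the mitotic genes. Rrm2 (scaffold_1:124918479-124925127, plus strand), the ribonucleotide reductase subunit made in S phase, stood at 166, 141, 207 and 238 CPM untreated and 45.1, 26.7, 52.2 and 80.0 CPM at 10 Gy. It fell by more than the group's median and did not overlap (log2 change -1.93 ± 0.10, adjusted p = 3.93e-08). Mcm5, part of the replicative helicase, stood at 56.1, 42.9, 73.4 and 81.4 CPM and 18.9, 14.6, 22.1 and 29.4 CPM (log2 change -1.56 ± 0.062, adjusted p = 9.85e-09). Tk1, thymidine kinase, stood at 25.6, 23.8, 29.3 and 43.4 CPM and 6.71, 7.53, 7.7 and 12.1 CPM (log2 change -1.82 ± 0.073, adjusted p = 9.85e-09). Cdc6, which loads the helicase at origins, stood at 15, 12, 18.8 and 23.4 CPM and 3.56, 2.35, 5.43 and 7.82 CPM (log2 change -1.88 ± 0.11, adjusted p = 1.04e-07). Every one of these was lower at 10 Gy in each animal, and animal 4 had the highest level of all 3 in both groups.

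In 2 lists of DNA repair genes the share that fell lay above the 12.4% of all genes tested. The p53 targets of metabolism and repair, of which 9 of 18 rose and 2 fell, are given above. Of 34 genes of homologous recombination and the Fanconi pathway, which repair breaks in replicating cells, 24 fell and 0 rose, with a median log2 change of -0.614. Brca1 went from 34.6, 27.9, 37.7 and 40.7 CPM to 10.1, 5.89, 10.3 and 14.1 CPM (log2 change -1.82 ± 0.099, adjusted p = 5.06e-08), and its partner Bard1 from 15.3 ± 2.29 CPM to 5.05 ± 1.82 CPM (log2 change -1.61 ± 0.13). No library at 10 Gy reached the untreated range in these genes. Of 25 tested genes of ATM signalling and end joining, 12 fell and 0 rose, with a smaller median of -0.218. Chek1, the kinase of the replication checkpoint, went from 19.8 ± 4.51 CPM to 8.8 ± 2.94 CPM (log2 change -1.18 ± 0.10, adjusted p = 3.46e-06). Topbp1, which activates the kinase ATR, went from 57.2 ± 9.83 CPM to 31.4 ± 5.7 CPM (log2 change -0.85 ± 0.059, adjusted p = 2.98e-07). Both were separated between the groups. The 12 became 7 without animal 3 and 4 without the block. The difference between the 2 repair lists was not tested.

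Chromatin and nuclear envelope genes fell with the cell cycle genes. Of 17 genes of lamins, nuclear envelope and HMGB proteins, 15 fell and 1 rose, with a median log2 change of -0.7, and 7 fell without the block. Hmgb2 (scaffold_13:73137295-73141263, minus strand), a DNA-bending chromatin protein of dividing cells, stood at 62.5, 66.6, 88.3 and 118 CPM untreated and 18.7, 19.6, 25.1 and 36.6 CPM at 10 Gy. It had the lowest p of all genes tested, since the 4 animals fell by nearly the same ratio (log2 change -1.74 ± 0.056, adjusted p = 4.05e-09). Lmnb1 (scaffold_3:30643834-30694263, minus strand), lamin B1, whose loss is a known mark of senescent cells, stood at 96.7, 85.7, 126 and 154 CPM and 30.3, 21.8, 38.3 and 60.8 CPM. It was lower in each animal without overlap (log2 change -1.65 ± 0.084, adjusted p = 3.54e-08). Syne1, a linker of the nuclear envelope to the cytoskeleton, was the one that rose (log2 change 0.28 ± 0.055, adjusted p = 0.00255, 0.483 without the block). Of 40 histone genes matched by name 14 had enough reads to test, and 6 of these fell, with a median log2 change of -0.369. H1f10, a linker histone, went from 10.5 ± 2.85 CPM to 4.53 ± 0.859 CPM (log2 change -1.17 ± 0.12, adjusted p = 1.04e-05). Replication-dependent histone mRNAs lack a poly(A) tail, so polyA libraries hold little of them. Without the block 1 histone fell.

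**Figure D4:**
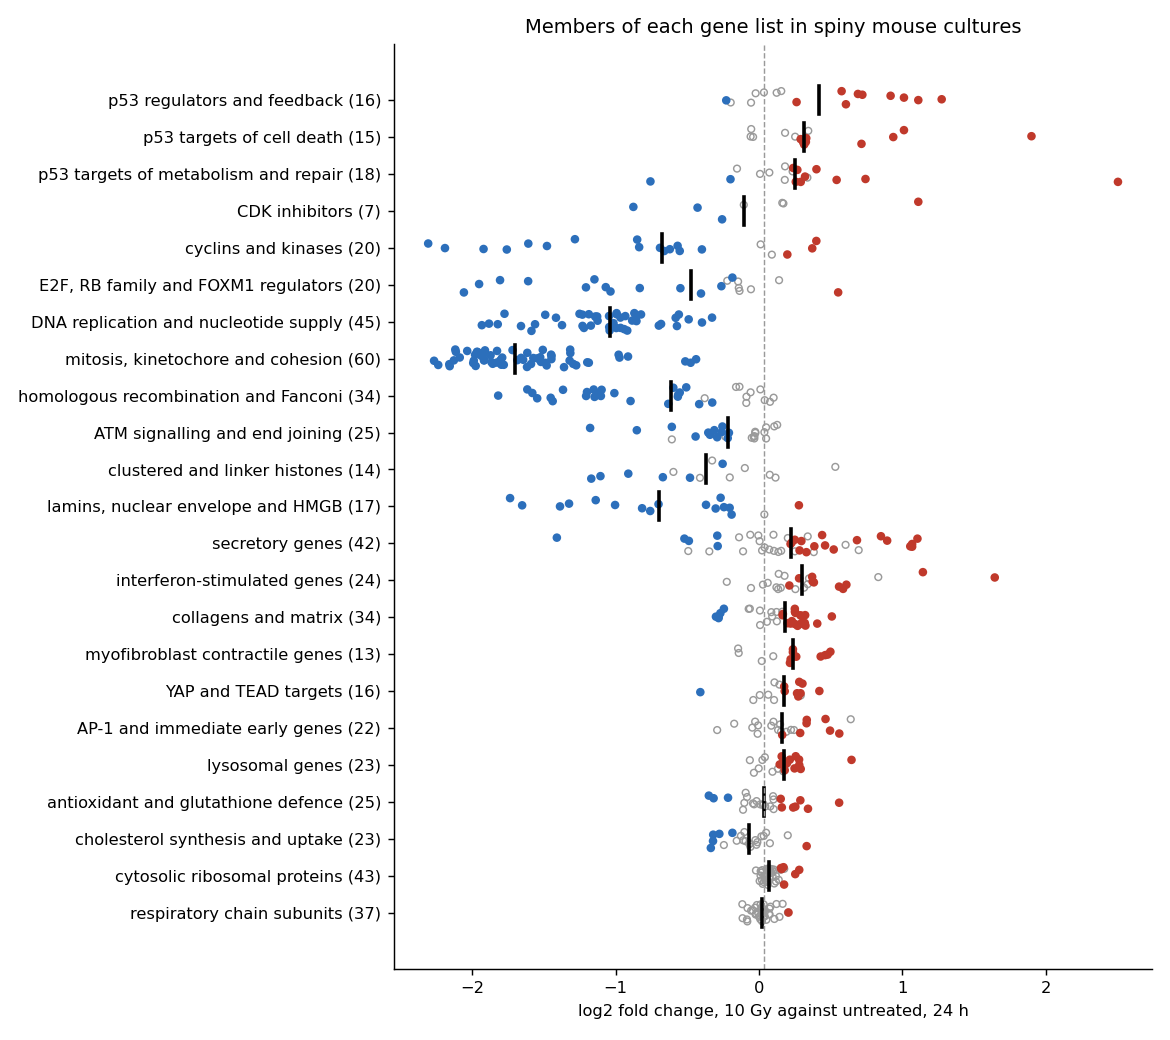
Log2 change at 10 Gy of each tested member of 23 gene lists, 1 point per gene. Filled points passed the threshold (red higher, blue lower), black bars are list medians and the dashed line is the median of all genes (0.0332). The mitosis (-1.7) and replication (-1.04) lists lie lowest.

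Of 42 tested secretory genes 17 rose and 5 fell, with a median log2 change of 0.225, where 15.2% of all genes tested rose and 12.4% fell. Ccl2, a monocyte chemokine, stood at 35, 75.8, 24.4 and 26.9 CPM untreated and 75, 120.3, 58 and 69.3 CPM at 10 Gy. It was higher at 10 Gy in each animal, but untreated animal 2 lay within the irradiated range (log2 change 1.10 ± 0.095, adjusted p = 2.3e-06, 0.245 without the block). Il6, an inflammatory cytokine, stood at 1.96, 4.04, 0.914 and 1.86 CPM and 4.49, 6.66, 2.94 and 3.41 CPM. Its levels were low, and untreated animal 2 again overlapped (log2 change 1.07 ± 0.16, adjusted p = 0.000281, 0.304 without the block). Igfbp3, which binds insulin-like growth factors, fell most, from 63.3, 30.9, 93.7 and 215 CPM to 23.4, 18.3, 35.2 and 54.1 CPM. It was lower in each animal, and animal 4 had the highest level at both doses (log2 change -1.41 ± 0.13, adjusted p = 6.19e-06, 0.207 without the block). Plat, Igfbp5, Nrg1 and Angptl4 also fell, and Angptl4, a lipase inhibitor, by the most of these 4 (log2 change -0.52 ± 0.091, adjusted p = 0.00112, 0.789 without the block). Of the whole list, 1 gene passed without the block.

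Of 24 interferon-stimulated genes 10 rose and 0 fell, with a median log2 change of 0.297, where 15.2% of all genes tested rose. Lgals3bp (scaffold_9:3495598-3506298, plus strand), a secreted glycoprotein, stood at 17, 20.1, 10.5 and 6.66 CPM untreated and 47.1, 54, 34.4 and 25.4 CPM at 10 Gy. Each animal was higher at 10 Gy and the groups did not overlap (log2 change 1.64 ± 0.085, adjusted p = 3.82e-08, 0.0557 without the block). Irf7, a transcription factor of the interferon response, went from 0.625, 0.354, 0.635 and 0.532 CPM to 1.53, 1.12, 1.08 and 1.05 CPM, all low levels (log2 change 1.14 ± 0.23, adjusted p = 0.0029). The 10 became 5 without animal 3, 5 without animal 4 and 1 without the block.

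Matrix, contractile and lysosomal genes shifted upward by small amounts, where 15.2% of all genes tested rose and 12.4% fell. Of 34 collagens and matrix genes 19 rose and 5 fell, with a median log2 change of 0.183. Col1a1, a chain of type I collagen, stood at 7658, 6798, 7336 and 5917 CPM untreated and 7776, 9593, 8187 and 7048 CPM at 10 Gy, with overlap (log2 change 0.25 ± 0.068, adjusted p = 0.0155). That call was lost without the block (adjusted p = 0.326) and without animal 2, 3 or 4 (adjusted p = 0.0512, 0.0587 and 0.0791). Thbs1, thrombospondin 1, went from 15731 ± 5843 CPM to 20007 ± 5189 CPM (log2 change 0.41 ± 0.073, adjusted p = 0.0013, 0.586 without the block). The 5 that fell were Col14a1, Thbs2, Fbln1, Lox and Vcan, the last of which encodes the proteoglycan versican (log2 change -0.28 ± 0.064, adjusted p = 0.00561, 0.774 without the block). Of 13 contractile genes of myofibroblasts 9 rose and 0 fell, with a median of 0.237. Acta2, smooth muscle actin, stood at 3816, 4311, 3258 and 2995 CPM and 4389, 4990, 3826 and 3507 CPM. Each animal was higher at 10 Gy while the groups overlapped (log2 change 0.24 ± 0.049, adjusted p = 0.00339, 0.491 without the block, 0.0605 without animal 3). Cnn1, calponin, went from 161 ± 39 CPM to 223 ± 44.1 CPM (log2 change 0.50 ± 0.06, adjusted p = 5.78e-05, 0.269 without the block). Of 8 tested mural and muscle markers 3 rose and 0 fell (median log2 change 0.354), namely Cspg4 (0.32 ± 0.058, adjusted p = 0.00129), Notch3 (0.39 ± 0.074, 0.00193) and Myh11 (0.48 ± 0.10, 0.00413), and none passed without the block. Summed skeletal muscle genes were also higher at 10 Gy in each animal, as given above. The part of either in these rises was not tested.

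Of 23 lysosomal genes 14 rose and 0 fell (median 0.177), and Lamp1, a lysosomal membrane protein, went from 514 ± 57.1 CPM to 622 ± 85.2 CPM (log2 change 0.29 ± 0.048, adjusted p = 0.000643, 0.272 without the block). Of 16 YAP and TEAD genes 8 rose and Tead2 fell (median 0.178), and Ankrd1, a stretch-responsive target, stood at 1596, 1710, 1593 and 1256 CPM and 2044, 1847, 2178 and 2026 CPM (log2 change 0.42 ± 0.077, adjusted p = 0.00147, 0.0777 without the block). Of 22 AP-1 and immediate early genes 7 rose and 0 fell (median 0.158), and Dusp5, a phosphatase of ERK, went from 24.9 ± 5.62 CPM to 35.7 ± 4.21 CPM (log2 change 0.56 ± 0.072, adjusted p = 0.000101, 0.152 without the block). These shifts were small beside the cell cycle genes, and 15.2% of all genes tested rose. No member of the matrix, contractile, lysosomal, YAP or AP-1 lists passed without the block. Without animal 4 the numbers that rose were 10 matrix, 5 lysosomal, 3 YAP, 4 AP-1 and 11 secretory genes, and without animal 3 they were 11 matrix, 7 lysosomal, 6 YAP, 4 AP-1 and 11 secretory genes.

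Housekeeping groups had medians near that of all genes. Of all genes tested 15.2% rose and 12.4% fell, and the 14% of ribosomal genes that rose lay near that share. Of 43 cytosolic ribosomal protein genes 6 rose and 0 fell (median log2 change 0.0702), and of 37 respiratory chain subunits Cox7a2 rose and 0 fell (median 0.0216). Of 25 antioxidant genes 7 rose and Prdx4, Gclc and Gclm fell (median 0.0322). Nqo1, a quinone reductase under the stress regulator NRF2, went from 2.79 ± 0.558 CPM to 4.05 ± 0.604 CPM (log2 change 0.56 ± 0.12, adjusted p = 0.00344, 0.191 without the block). Gclc, which limits glutathione synthesis, went from 60.2 ± 5.18 CPM to 46.7 ± 5.27 CPM (log2 change -0.35 ± 0.054, adjusted p = 0.000414, 0.0988 without the block). Of 23 cholesterol genes 5 fell and 1 rose (median -0.0666). In these 4 lists no gene passed without the block, and without animal 3 or 4 the ribosomal genes that rose numbered 2 and 2, the antioxidant genes 5 and 3, and the cholesterol genes that fell 3 and 3.

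At 20 Gy the same groups stood at levels close to those at 10 Gy. The 20 Gy comparison uses the same 4 untreated libraries, so its values are set side by side only. At 20 Gy 3170 of 13146 genes passed (24.1%), 1748 higher (13.3%) and 1422 lower (10.8%). Without the block 472 passed, without animal 3 1356 and without animal 4 1316. In the mitosis list 59 of 60 fell, with a median log2 change of -1.52, and in the replication list 44 of 45 fell, with a median of -0.966. Of the 16 p53 regulators 10 rose and 1 fell, with a median of 0.489.

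Tested directly against 10 Gy, 40 of 13242 genes differed at 20 Gy (0.302%), 36 higher (0.272%) and 4 lower (0.0302%), and 0 of them by 2-fold. Both ends of the response appeared among them. Cdkn1a stood at 752, 788, 807 and 796 CPM at 20 Gy in animals 1 to 4, against 717, 692, 702 and 625 CPM at 10 Gy (log2 difference 0.20 ± 0.041, adjusted p = 0.025). It was higher at the larger dose in each animal. Mdm2 (log2 difference 0.22 ± 0.037, adjusted p = 0.00844), Ccng1 (0.21 ± 0.036, 0.00844) and Eda2r (0.31 ± 0.047, 0.00371) were higher as well. Some mitotic genes that had fallen at 10 Gy had fallen less at 20 Gy. Ccnb1 stood at 44.2, 29.4, 54.8 and 80.9 CPM at 20 Gy and 34.8, 23.4, 39.8 and 59.5 CPM at 10 Gy (log2 difference 0.40 ± 0.045, adjusted p = 0.000153). Ube2c, the ubiquitin-conjugating enzyme that ends mitosis, stood at 17.5, 12.4, 26 and 34.1 CPM and 14.6, 10.0, 17.6 and 25.3 CPM (log2 difference 0.40 ± 0.061, adjusted p = 0.00358). Gtse1, which restrains p53 in G2 phase, stood at 14.8, 14.8, 17.4 and 22.4 CPM and 13, 8.67, 13.7 and 16.3 CPM (log2 difference 0.44 ± 0.075, adjusted p = 0.00844). By contrast Mki67 did not pass, at -0.029 ± 0.046 (adjusted p = 0.963).

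Lower at 20 than at 10 Gy were Igfbp5, a binding protein of insulin-like growth factors (log2 difference -0.32 ± 0.04, adjusted p = 0.000444), and Tnc, the matrix protein tenascin C (-0.24 ± 0.039, 0.00463). Igfbp5 stood at 58.6, 44.6, 105 and 93.3 CPM at 20 Gy and 68.2, 57.7, 136 and 116 CPM at 10 Gy, lower in each animal. Tnc stood at 174, 304, 185 and 157 CPM and 191, 379.7, 213 and 196 CPM. Without the block 0 genes passed in edgeR (55 at an unadjusted p under 0.05), while DESeq2 with the block gave 28 genes, 26 higher and 2 lower. Without animal 2 the count was 6 (5 higher), without animal 3 it was 7 (4 higher) and without animal 1 it was 66. Ube2c was among the 5 without animal 2 (adjusted p = 0.0175). Cdkn1a, Mdm2, Ccng1, Eda2r and Ccnb1 therefore cannot all have passed without animal 2, nor all without animal 3. Gtse1 and Tnc were lost without animal 2 (adjusted p = 0.178 for both) and without animal 3 (adjusted p = 0.0585 for both), and Ube2c without animal 3 (0.102).

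At 12 d after 10 Gy, in other libraries of the same 4 animals, 7 of the 16 p53 regulators were higher than in untreated cells, and 7 of the 60 mitosis genes were lower. The untreated cells here are those not labelled as passaged, and no comparison with the passaged ones was made. Time and batch cannot be told apart, so no 12 d value was tested against a 24 h value. At 12 d 3638 of 13215 genes passed (27.5%), 1870 higher (14.2%) and 1768 lower (13.4%). Without the block 379 passed, without animal 1 1175 and without animal 3 1613. Of the p53 regulators 1 fell (median of the list 0.19), of the mitosis genes 1 also rose (median of the list -0.451), and of the 45 replication genes 7 fell (median -0.273). Cdkn1a stood at 798 ± 138 CPM untreated and 1444 ± 276 CPM at 10 Gy at 12 d (log2 change 0.86 ± 0.12, adjusted p = 0.00336). Mki67 stood at 58.5 ± 8.99 CPM and 39.2 ± 19.4 CPM at 12 d (log2 change -0.70 ± 0.24, adjusted p = 0.0619). In the untreated cells at 24 h, under another batch label and scaled separately, Mki67 stood at 291 ± 18 CPM, and that difference was not tested. Rrm2 was level at 12 d, at 42.2 ± 6.56 CPM and 43.2 ± 17.2 CPM (log2 change -0.023 ± 0.15, adjusted p = 0.92).

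Cdkn2a, which did not pass at 24 h, and the cytokines Ccl2 and Il6 were higher after 10 Gy at 12 d. Cdkn2a stood at 55.6 ± 23.6 CPM untreated and 103 ± 48 CPM at 10 Gy (log2 change 0.87 ± 0.079, adjusted p = 0.000877). Ccl2 stood at 21.9 ± 10.4 CPM and 97.6 ± 58.9 CPM (log2 change 2.10 ± 0.088, adjusted p = 0.000109). Il6 stood at 3.63 ± 2.83 CPM and 10.6 ± 5.83 CPM (log2 change 1.69 ± 0.17, adjusted p = 0.00108). Ribosomal protein genes, of which 0 fell at 24 h, fell in 40 of 43 cases at 12 d (median -0.492). Of the genes that rose at 24 h, 609 also rose at 12 d, which is 30.6% of the 24 h list and 32.6% of the 12 d list, and 206 (10.3%) fell. Of the genes that fell at 24 h, 313 also fell at 12 d (19.3% and 17.7%), and 72 (4.44%) rose. The shares of all genes tested that rose and fell at 12 d were 14.2% and 13.4%. The summed skeletal muscle genes lay at 8827 to 18455 CPM untreated and 7056 to 21260 CPM at 10 Gy at 12 d, with animal 2 lowest in both groups.

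The fall at 10 Gy was deeper in spiny mouse than in C56BL6 cells for 59 of 60 mitotic genes. The difference of the 2 changes was tested on symbols shared by the spiny mouse and mouse tables. It passed for 2091 of 13538 genes (15.4%), 1032 with the spiny mouse change higher (7.62%) and 1059 lower (7.82%). The median difference was -1.56 in the mitosis list, and in the replication list 41 of 45 genes had a lower change in the spiny mouse, with a median of -0.847. Within C56BL6 alone 16 of the 60 mitosis genes and 14 of the 45 replication genes fell, with median log2 changes of -0.161 and -0.197, where 11.5% of 14280 genes passed (5.42% higher and 6.11% lower). Mki67 stood at 228, 181, 242 and 232 CPM in untreated C56BL6 replicates 1 to 4 and at 186, 176, 216 and 209 CPM at 10 Gy. These groups lay close together, unlike those of the spiny mouse (difference of log2 changes -1.81 ± 0.17, adjusted p = 1.15e-06). Foxm1 differed by -1.71 ± 0.10 (adjusted p = 2.27e-08) and E2f8 by -2.0 ± 0.10 (adjusted p = 8.44e-09).

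Targets of p53 differed less uniformly. Of the 16 regulators 6 had a higher change in the spiny mouse than in C56BL6, and Trp53 had a lower one, with a median difference of 0.216. Of 16 p53 targets of cell death 4 had a higher and 3 a lower change (median difference 0.0245). Of 18 targets of metabolism and repair 0 had a higher and 2 a lower change (median 0.0393). Within C56BL6 alone 9 of 15 cell death targets rose and 1 fell, with a median log2 change of 0.317. Cdkn1a stood at 348 ± 48.6 CPM untreated and 459.6 ± 34.9 CPM at 10 Gy in C56BL6 (log2 change 0.42 ± 0.06), and its change was higher in the spiny mouse by 0.69 ± 0.096 (adjusted p = 8.82e-05). Eda2r was higher by 1.21 ± 0.18 (adjusted p = 0.000136). For Mdm2 the log2 change was 0.86 ± 0.054 in C56BL6, and the difference of -0.15 ± 0.082 did not pass (adjusted p = 0.241). Lgals3bp had a log2 change of -0.0044 ± 0.053 in C56BL6, and its change was higher in the spiny mouse by 1.64 ± 0.10 (adjusted p = 3.29e-08). Matrix genes had a higher change in the spiny mouse in 16 of 36 cases and a lower one in 2. For AP-1 and immediate early genes the numbers were 13 and 0 of 22. In C56BL6 itself 2 of 33 matrix genes rose and 9 fell (median log2 change -0.0941). Of the 22 AP-1 genes 1 rose and 8 fell there (median -0.133), where 5.42% of all genes were higher and 6.11% lower. Without the block 202 genes differed, among them 52 of the mitosis and 10 of the replication genes but 1 of the p53 regulators, 0 of the matrix and 0 of the AP-1 genes. Without replicate 3 of both populations the total was 973 and without replicate 4 it was 1143, with 57 and 58 of the mitosis genes. The matrix genes with a higher change then numbered 9 and 9, and the AP-1 genes 8 and 11.

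Against wild mice 32 of 13560 genes differed in their change (0.236%), 14 higher (0.103%) and 18 lower (0.133%). In the mitosis list 0 of 60 passed although the median difference was -0.774, and in the replication list 1 of 45 did. That gene was Rrm2, which stood at 70.1, 249, 77.9 and 274 CPM in untreated wild replicates 1 to 4 and at 81.7, 243, 47.5 and 248 CPM at 10 Gy (difference of log2 changes -1.79 ± 0.24, adjusted p = 0.0484). Within wild mice alone 0 of 14412 genes passed in edgeR (1564 at an unadjusted p under 0.05), with median log2 changes of -0.863 for mitosis and 0.363 for p53 regulators. Mki67 stood at 120.0, 132, 202 and 195 CPM untreated and 44.9, 59.3, 109 and 107 CPM at 10 Gy in wild mice. The wild library of replicate 1 at 10 Gy stood apart, with 17.42 M reads and 17843 genes detected against 20635 to 22253 in the other 7. Without wild replicate 1, 1439 genes differed, 729 higher and 710 lower. Among them were 42 of the 60 mitosis genes and 9 of the 45 replication genes, all lower in the spiny mouse. The median differences of these lists were -0.709 and -0.164. In the same fit 1 of 16 p53 regulators had a higher change in the spiny mouse and 3 had a lower one. The numbers were 2 and 5 of 16 cell death targets, and 0 and 5 of 18 metabolism and repair targets. Without the block 0 genes differed (409 at an unadjusted p under 0.05), and without replicate 2, 3 or 4 of both populations the count was 0, 0 and 0. The cultures also differed in skeletal muscle RNA, as given above, which cannot be told apart from species here.

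**Figure D5:**
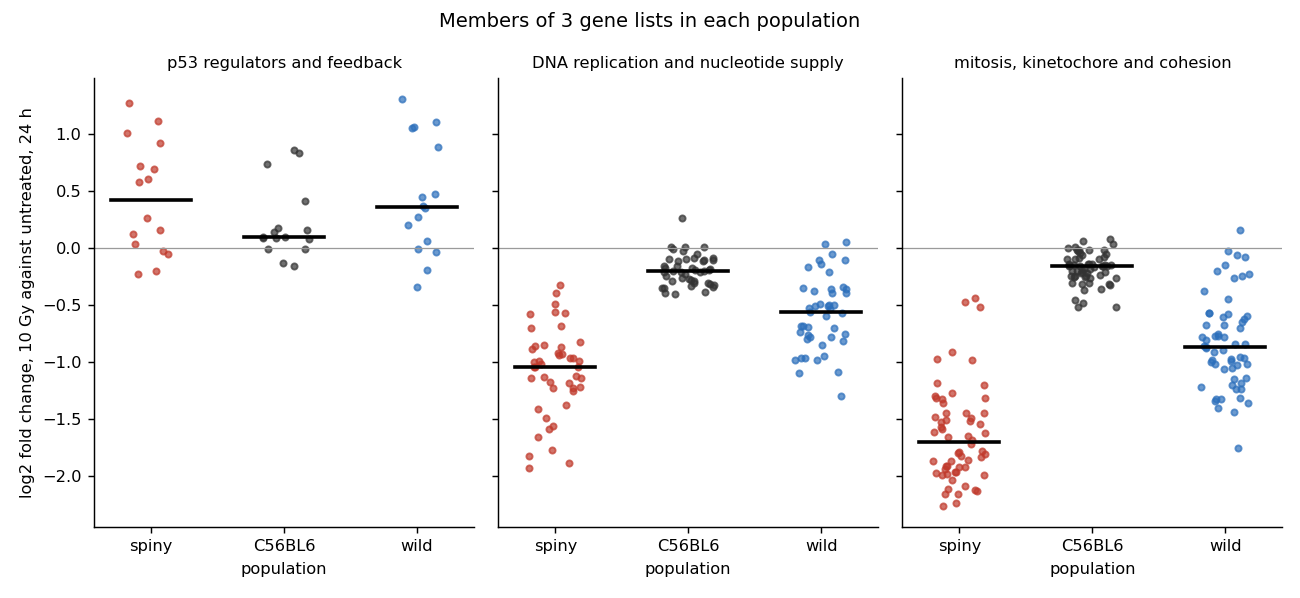
Log2 change at 10 Gy and 24 h of each member of the p53 regulator, replication and mitosis lists in spiny mouse, C56BL6 and wild mouse cells. Points are genes and bars are medians. Mitosis medians are -1.7, -0.161 and -0.863, in that order.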

How the data were processed

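The authors deposited read counts per gene from featureCounts 2.0.3, per the file headers, taken on the AcoCah2 annotation for the spiny mouse (grouped by gene name, 19818 names) and on Ensembl release 108 of GRCm39 for the mice. Trim Galore and HISAT2 are named in the submitters' processing notes. The deposited counts are raw, were counted without a strand option and leave multiply mapped reads out, so antisense, overlapping and near-identical genes are uncertain. The deposited gene length column (another quantity, in base pairs, per the file headers) entered no test. All 28 spiny mouse and 56 mouse count columns were matched to a library by name.

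Groups came from the labels. After filterByExpr and TMM scaling, tests were run in edgeR 4.0.16 in R 4.3.3 (quasi-likelihood, Benjamini-Hochberg, threshold 0.05), with the animal as a block because each replicate number is 1 animal code in the library names and the paired libraries deviated together (r of 0.511 to 0.828). Standard errors are the absolute log2 change over the square root of F. Differences between populations were interaction terms over 18109 symbols found once in each table, with TMM within each table. Counts carry no molecular identifiers, so the floor of 3 reads covers counting error only. Replicates of a group differed by 12.3 to 177 times the sampling noise and none were merged. Alternatives were RLE scaling, no expression filter, a 5 CPM minimum, DESeq2 1.42.0, 1 fit of all 3 doses, no block and each animal left out, and, chosen after seeing the data, leaving out wild replicate 1. The steps were tested on simulated data.

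Named genes were a panel of cell cycle and p53 genes, the 10 largest rises and falls (at least 5 CPM on average, same direction in 4 pairs), the 2 largest called changes each way per list, the 3 largest dose differences and 4 largest population differences each way, and the 5 lowest p-values. Orc1, Mcm6 and the muscle genes, as well as members of counts of 5 or fewer, were named after values were seen. The members and lists were chosen with earlier results of these data known. Promoter windows came from the RefSeq table of house mouse GRCm38.p6. Some named genes are not reported here.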

Additional observations from a re-analysis of the deposited data

Results flagged for a closer look

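Within the 8 libraries, 18 of 242 groups of 4 checked had 1 library far from the other 3 by Dixon's criterion, of which chance gives about 5%. Most were animal 2, named here with its level. It was high in Col8a1 (1260 CPM untreated and 1462 CPM at 10 Gy), Dcn (974 CPM untreated), Pdgfra (76.0 and 78.9 CPM), Tnc (399 and 379.7 CPM), Ctsk (11.2 and 17.5 CPM), Pparg (9.68 CPM untreated), Krt14 (3.04 CPM at 10 Gy) and Prdx5 (36.7 CPM at 10 Gy). Animal 2 was low in Myod1 (57.5 CPM untreated) and Rassf4 (7.55 CPM untreated). The remaining outlying libraries were animal 3 untreated in Mki67 (318 CPM, high), animal 4 at 10 Gy in Syne1 (102.4 CPM, low), animal 4 untreated in Klf4 (50.4 CPM, low) and animal 1 at 10 Gy in Irf7 (1.53 CPM, high).

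The change at 10 Gy differed between populations, tested as an interaction in edgeR, in 2091 genes against C56BL6 and in 32 against wild mice. Against C56BL6 the largest called differences of log2 changes on the lower side were in the mitotic genes Ccnb2 (-2.16) and Cdca3 (-2.06), and in Gemin4 (-4.85) and Dnah12 (-2.91). On the higher side they were 2.34 for Rassf4, 2.28 for Ntrk3, 2.14 for Rspo3 and 2.11 for Lypd6. Gemin4 was at 0 in the untreated C56BL6 libraries and at most 0.137 CPM at 10 Gy, and Dnah12, Rspo3 and Lypd6 stayed under 1 CPM in every C56BL6 library of both groups, so their fitted differences depend on the prior count and are no bound. Rassf4 and Ntrk3 reached 6.25 and 4.46 CPM in untreated C56BL6 replicate 3 and were at most 1.16 CPM in the other libraries, and without replicate 3 they did not pass (adjusted p = 0.118 and 0.0984). Lypd6 did not pass when any 1 replicate was left out (adjusted p = 0.0508 to 0.344), Gemin4 without replicate 2 or 4 (0.059 and 0.0573), or Dnah12 without replicate 1, 3 or 4 (0.152, 0.343 and 0.0624).

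Against wild mice the largest called differences were -1.79 for Rrm2, -1.57 for Hjurp, -6.26 for Tmprss11f and -2.41 for Tomm6 on the lower side. On the higher side they were 2.89 for Kank4, 2.28 for Rassf4, 1.96 for Smtnl2 and 1.86 for Fndc1. Tmprss11f was at 0 in the untreated wild libraries and at most 0.783 CPM at 10 Gy, and Tomm6, Kank4 and Smtnl2 stayed under 2 CPM in every wild library of both groups, with the same limit on their fitted values. None of these 8 genes passed without replicate 2, 3 or 4 (adjusted p = 0.334 to 0.482), and Kank4 and Tomm6 did not pass without replicate 1 (0.0773 and 0.162). Without wild replicate 1, Rrm2 differed by -1.68 (adjusted p = 0.000105) and Hjurp by -1.43 (0.000253), while Kank4 and Tomm6 did not pass (0.0659 and 0.141).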

How the results depend on the processing

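No named result that passed changed sign under the alternatives run, though some that did not pass did (up to 3 per alternative). Without the replicate block the counts of genes called were 488 (83 higher, 405 lower) at 10 Gy, 472 (117 and 355) at 20 Gy, 0 (0 and 0) for 20 against 10 Gy, 379 (170 and 209) at 12 d, 202 (8 and 194) against C56BL6 and 0 (0 and 0) against wild mice. Of 127 calls on named results 77 were lost without the block and 50 stayed. At 10 Gy more genes were called higher than lower, but fewer without the block (17%, against 55.1% higher), animal 2 (2280 higher, 2462 lower) or animal 4 (916 and 1069). With 1 replicate number left out (of both populations where these were compared), the counts ranged from 1985 to 4742 at 10 Gy (916 to 2280 higher, 1050 to 2462 lower), 1316 to 3925 at 20 Gy (571 to 1939, 720 to 1986), 6 to 66 for 20 against 10 Gy (4 to 47, 1 to 19), 1175 to 3564 at 12 d (607 to 1852, 568 to 1712), 973 to 2610 against C56BL6 (445 to 1288, 528 to 1322) and 0 to 986 against wild mice (0 to 507, 0 to 479). Without an expression filter 92 genes (71 higher, 21 lower) differed between doses and 5 (3 and 2) against wild mice. DESeq2 gave 28 genes between doses (26 higher, 2 lower). RLE scaling gave 20 genes against wild mice (8 higher), and without wild replicate 1 there were 1439 (729 and 710). The cause was not tested, other than that leaving out an animal removes libraries. Among named calls DESeq2 kept 108 of 111, and RLE scaling 125 of 127. The median log2 change of all genes was 0.0332 with TMM and 0.0305 with RLE. Depth limits genes under 0.105 CPM, the level of 3 reads in the shallowest of the 8 libraries.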
